A study of Mus musculus with 31 samples.

Results

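The genes described here are 10 listed genes of blood vessel endothelium and pericytes, Cldn5, Cdh5, Esam, Pecam1, Kdr, Flt1, Tek, Aplnr, Cd93 and Rgs5, measured in whole mouse retina. They were taken by symbol from a list drawn up with earlier results of these data known, and all 10 were among the 18193 genes with a probe set that carries 1 gene symbol. The series holds 31 Affymetrix expression arrays, each from the 2 retinas of 1 mouse, in 8 groups of 4 mice, except P28 +/+;CrxpNrl with 3. At P14 and at P28 (postnatal days 14 and 28) the groups were +/+ (both Rorb alleles present), Rorb-/- (the retinoid-related orphan receptor gene Rorb knocked out), +/+;CrxpNrl and Rorb-/-;CrxpNrl. CrxpNrl denotes a transgene with the rod transcription factor gene Nrl under the promoter of Crx, a gene of developing photoreceptors. The knockout is named without a tissue limit. Strain, sex and the form of the Rorb allele are not given in the sources used here. The question for these genes was how far the change from P14 to P28 differed between the Rorb genotypes.

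The vessels of the mouse retina grow after birth, first over the inner surface on a template of astrocytes and then down into deeper layers. Hypoxic neurons and glia release vascular endothelial growth factor (VEGF), endothelial tip cells sprout towards it, and pericytes cover and steady the new tubes. As the network matures, sprouting genes are turned down and tight junctions between endothelial cells form the blood-retina barrier. The photoreceptors are fed from the other side by the choroid, a vessel bed that lies behind the pigment epithelium and is removed, with some remainder, when a retina is dissected. In RNA from whole retina, fewer vessel cells and less RNA per vessel cell cannot be told apart.

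All values are log2 probe set signals as normalized by the authors, so a difference of 1 is a doubling. A level belongs to its own probe set and is not compared between genes. A difference was called where the adjusted p of the limma fit over all 31 arrays, Benjamini-Hochberg adjusted over 18193 genes, was under 0.05. Rorb itself read 10.23 to 11.18 in the 15 arrays with both alleles and 8.15 to 9.98 in the 16 arrays labelled Rorb-/-, with no overlap. As a check of the tissue, the mean of 8 rod genes lay at 12.55 to 13.03 in the +/+ mice without the transgene. It was lower in Rorb-/- mice, at 8.90 to 10.58 at P14 and 9.92 to 10.39 at P28. At P14 all 8 rod genes were called lower (median -3.31), as were 13.9% of all genes. This fall in rod markers goes with the Rorb genotype, as the vessel gene differences do, and its part in them was not tested. Lens genes, a sign of dissection, varied widely, with a mean of 9 genes from 4.52 to 11.08 over the arrays.

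At P14, most of the 10 listed genes were lower in retinas without Rorb. Of the 10 genes, 7 were lower in Rorb-/- than in +/+ mice, where 13.9% of all genes were lower, and 2 were higher, where 16% of all genes were higher. The pericyte gene Rgs5 was 3.47-fold lower, the tight junction gene Cldn5 3.26-fold lower and the apelin receptor Aplnr 3.88-fold lower, while the VEGF receptor Kdr was 2.04-fold higher. The Aplnr value is that of the probe set used, and its other one gave -0.27 on the log2 scale. The median over the 10 genes was -1.20 on the log2 scale, against -0.007 over all genes. In 9 of the 10 genes the 4 Rorb-/- mice did not overlap the 4 +/+ mice, which held for 29.6% of all genes.

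**Figure D1:**
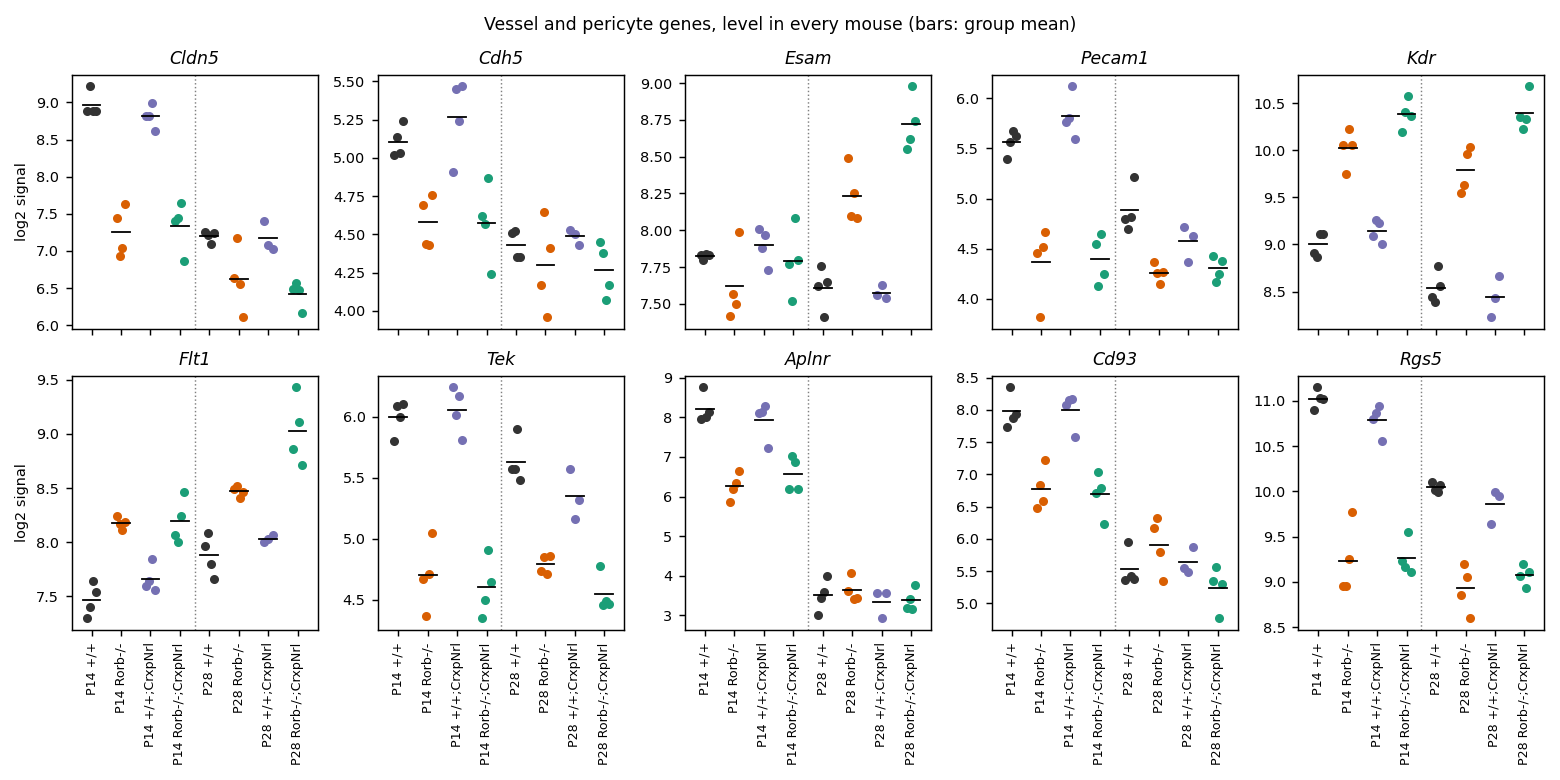
Log2 signal of the 10 genes (vertical axes, a separate range for each gene) in every mouse of the 8 groups (points), with bars at the group means and a dotted line between P14 and P28. Cldn5, Aplnr, Cd93 and Rgs5 are high in the P14 groups with Rorb and lower in the others, Kdr is higher in all groups without Rorb, and Esam is highest in the P28 groups without Rorb.

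Cldn5 encodes claudin-5, the main tight junction protein of barrier endothelium (probe set 1417839_at). Its level was 8.88, 9.22, 8.88 and 8.88 in the P14 +/+ mice and 7.44, 6.93, 7.04 and 7.63 in the P14 Rorb-/- mice. All P14 mice without Rorb lay below all with it, and the difference was -1.70 ± 0.17 (SE, n = 4 and 4, limma adjusted p = 6.81e-09). At P28 Cldn5 lay at 7.25, 7.21, 7.09 and 7.24 in +/+ and at 6.63, 7.17, 6.56 and 6.11 in Rorb-/- mice. The P28 ranges overlapped, and the difference had shrunk to -0.58 ± 0.17 (limma adjusted p = 0.0107). That P28 call was lost without P28 Rorb-/- replicate 4 (-0.41, limma adjusted p = 0.0726).

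Within +/+ mice Cldn5 therefore fell by 1.76 on the log2 scale from P14 to P28, 3.40-fold, with no overlap of the ages (SE 0.17, limma adjusted p = 4.88e-08). In Rorb-/- mice it fell by 0.64 (SE 0.17, limma adjusted p = 0.0114), and the ages overlapped. The call in Rorb-/- mice was lost without P14 Rorb-/- replicate 4 (-0.52, limma adjusted p = 0.0532), without P28 Rorb-/- replicate 4 (-0.47, limma adjusted p = 0.068) and in a fit of those groups alone (-0.64, limma adjusted p = 0.0876). In the order of group means the P14 Rorb-/- mice (7.26) stood beside the P28 +/+ mice (7.20), and these neighbours overlapped.

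Cdh5 encodes VE-cadherin, the adherens junction protein of endothelium (probe set 1433956_at), and Pecam1 the endothelial adhesion molecule CD31 (probe set 1421287_a_at). Both were dim, near the lower quartile of all probe sets of an array, which lay at 3.98 to 4.05. Cdh5 read 5.02, 5.14, 5.03 and 5.24 in P14 +/+ mice and 4.69, 4.44, 4.43 and 4.76 in P14 Rorb-/- mice, a difference of -0.53 ± 0.14 with no overlap (limma adjusted p = 0.00345). At P28 it read 4.35 to 4.52 in +/+ and 3.96 to 4.65 in Rorb-/- mice, and the difference of -0.14 ± 0.14 did not pass (limma adjusted p = 0.505; 95% interval -0.42 to 0.14). Pecam1 read 5.39, 5.56, 5.67 and 5.62 in P14 +/+ mice and 4.46, 3.82, 4.52 and 4.67 in P14 Rorb-/- mice. The P14 groups did not overlap, and Pecam1 was 2.29-fold lower without Rorb (-1.20 ± 0.15, limma adjusted p = 2.3e-07). At P28 Pecam1 was still lower, at 4.15 to 4.37 against 4.70 to 5.21 (-0.62 ± 0.15, limma adjusted p = 0.00151).

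Esam encodes an adhesion molecule of endothelial tight junctions and platelets (probe set 1460356_at), and its pattern was its own among the junction genes. In P14 mice it read 7.83, 7.80, 7.84 and 7.83 in +/+ and 7.42, 7.57, 7.50 and 7.99 in Rorb-/-, and the difference of -0.21 ± 0.12 did not pass (limma adjusted p = 0.207). Replicate 4 was the high one of that Rorb-/- group, and without it the difference was -0.33 (limma adjusted p = 0.0279). In P28 mice it read 7.62, 7.76, 7.41 and 7.65 in +/+ and 8.49, 8.10, 8.25 and 8.08 in Rorb-/-. Every P28 Rorb-/- mouse was above every P28 +/+ mouse, by 0.62 ± 0.12 in the mean (limma adjusted p = 0.000124). Esam rose with age in Rorb-/- mice (0.61 ± 0.12, limma adjusted p = 0.000499), and in +/+ mice its difference of -0.21 ± 0.12 did not pass (limma adjusted p = 0.269).

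Kdr was higher in Rorb-/- mice, where Cldn5, Cdh5 and Pecam1 were lower. It encodes VEGF receptor 2, the main signalling receptor of endothelium, which is also known from retinal neurons (probe set 1449379_at). Kdr read 8.91, 8.87, 9.11 and 9.11 in P14 +/+ mice and 10.06, 9.75, 10.23 and 10.06 in P14 Rorb-/- mice, and 8.44, 8.39, 8.77 and 8.56 against 9.55, 9.63, 9.96 and 10.03 at P28. All Rorb-/- mice were above all +/+ mice at both ages, by 1.03 ± 0.12 at P14 (limma adjusted p = 9.61e-08) and 1.25 ± 0.12 at P28 (limma adjusted p = 1.96e-09).

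Flt1 encodes VEGF receptor 1, which binds VEGF tightly and limits its action. The Flt1 probe set used (1419300_at) read 7.30, 7.40, 7.64 and 7.54 in P14 +/+ and 8.24, 8.17, 8.11 and 8.19 in P14 Rorb-/- mice. The groups did not overlap at P14 (0.71 ± 0.12, limma adjusted p = 1.89e-05) or at P28 (0.59 ± 0.12, limma adjusted p = 0.000197). The other 3 probe sets of Flt1 did not show this: their Rorb-/- minus +/+ differences were -0.07, -0.01 and 0.12 at P14 and -0.03, 0.10 and 0.06 at P28. With the mean of the 4 probe sets the Flt1 difference was 0.19 at P14 (limma adjusted p = 0.178) and 0.18 at P28 (limma adjusted p = 0.189), so the higher Flt1 rests on 1 probe set.

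Tek encodes TIE2, the receptor of the angiopoietins, which steadies vessels (probe set 1418788_at). It read 5.80, 6.09, 6.0 and 6.10 in P14 +/+ mice and 4.67, 4.37, 4.71 and 5.05 in P14 Rorb-/- mice. At P28 it read 5.57, 5.57, 5.9 and 5.48 against 4.74, 4.85, 4.71 and 4.86. Tek was thus lower without Rorb in every mouse at both ages, by -1.29 ± 0.13 at P14 (limma adjusted p = 8.24e-09) and -0.84 ± 0.13 at P28 (limma adjusted p = 9.96e-06). Its change with age did not pass in +/+ (-0.36 ± 0.13, limma adjusted p = 0.0686) or in Rorb-/- mice (0.09 ± 0.13, limma adjusted p = 0.759). The +/+ change passed without P14 +/+ replicate 1 (-0.43, limma adjusted p = 0.0456) or P28 +/+ replicate 3 (-0.45, limma adjusted p = 0.0308).

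Aplnr and Cd93 had the largest age changes of the 10 genes in +/+ mice. Aplnr encodes the G protein-coupled receptor of apelin on growing vessels (probe set 1438651_a_at). It read 7.96, 8.76, 8.0 and 8.14 in P14 +/+ and 5.87, 6.20, 6.34 and 6.64 in P14 Rorb-/- mice, a difference of -1.96 ± 0.25 with no overlap (limma adjusted p = 3.15e-07). At P28 it read 3.02, 3.45, 3.59 and 3.99 in +/+ and 3.61, 4.06, 3.42 and 3.44 in Rorb-/- mice. These P28 values sat below the lower quartile of their own array in 14 of the 15 P28 arrays of the series, where a probe set has little room to fall further. The fall in +/+ mice (-4.71 ± 0.25, 26.1-fold) and in Rorb-/- mice (-2.63 ± 0.25, 6.20-fold) both ended there (limma adjusted p = 3.37e-13 and 2.97e-08). How far Aplnr truly fell in each genotype, and so the size of the difference between the falls, was limited by that dim end.

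Cd93 encodes a transmembrane glycoprotein of sprouting endothelium (probe set 1456046_at). Its level was 7.74, 8.35, 7.88 and 7.94 in P14 +/+ and 6.47, 6.83, 6.59 and 7.22 in P14 Rorb-/- mice, again with no overlap (-1.20 ± 0.21, limma adjusted p = 4.59e-05). At P28 it was 5.36, 5.95, 5.43 and 5.37 in +/+ and 6.16, 6.32, 5.79 and 5.35 in Rorb-/- mice. The P28 difference of 0.38 ± 0.21 did not pass (limma adjusted p = 0.192), but did without P28 Rorb-/- replicate 4, the low mouse (0.56, limma adjusted p = 0.046). Cd93 fell 5.45-fold with age in +/+ mice (-2.45 ± 0.21, limma adjusted p = 5.04e-09) and 1.83-fold in Rorb-/- mice (-0.87 ± 0.21, limma adjusted p = 0.00447).

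Rgs5 encodes a regulator of G protein signalling that marks pericytes (probe set 1417466_at). It read 10.90, 11.15, 11.03 and 11.02 in P14 +/+ and 8.95, 8.95, 9.25 and 9.77 in P14 Rorb-/- mice. At P28 it read 10.10, 10.02, 9.99 and 10.07 against 8.86, 9.20, 9.06 and 8.60. The genotypes were apart at both ages, by -1.79 ± 0.14 at P14 (limma adjusted p = 2.43e-11) and -1.12 ± 0.14 at P28 (limma adjusted p = 1.93e-07). Rgs5 fell with age in +/+ mice (-0.98 ± 0.14, limma adjusted p = 1.39e-05), and the difference of -0.30 ± 0.14 in Rorb-/- mice did not pass (limma adjusted p = 0.155).

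Across the list, 7 of the 10 genes fell and 1 rose with age in +/+ mice (7.94% and 5.77% of all genes), with a median of -0.68 on the log2 scale. In Rorb-/- mice 3 fell and 1 rose (8.8% and 6.15% of all genes), with a median of -0.26. At P28 the genotype difference held 4 genes lower and 3 higher (15.2% and 15.9% of all genes), with a median of -0.01 against -1.20 at P14. The lone riser in +/+ mice was Flt1 (0.41 ± 0.12, limma adjusted p = 0.0165). That call was lost without P14 +/+ replicate 1 (0.35, limma adjusted p = 0.061) or replicate 2 (0.38, limma adjusted p = 0.0538), and without P28 +/+ replicate 1 (0.38, limma adjusted p = 0.0549) or replicate 2 (0.34, limma adjusted p = 0.074).

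**Figure D2:**
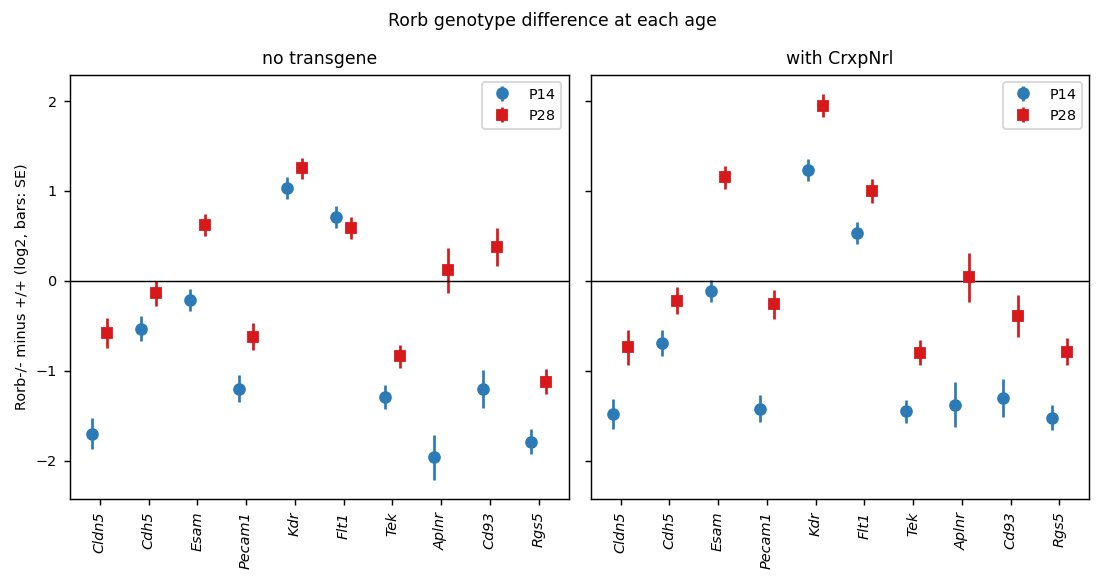
Difference Rorb-/- minus +/+ (vertical axis, log2) for the 10 genes at P14 (circles) and P28 (squares), without the transgene on the left and with CrxpNrl on the right; bars are standard errors. Without the transgene the P28 value lies above the P14 value in all genes but Flt1, and Kdr and Flt1 lie above 0 at both ages.

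The difference between the genotypes' age changes was tested as an interaction, the change from P14 to P28 in Rorb-/- minus that in +/+ mice. It passed in 4 of the 10 genes, Aplnr, Cd93, Cldn5 and Esam, and all 4 were positive (1.41% of all genes were called in that direction). Aplnr differed by 2.07 ± 0.35 (limma adjusted p = 0.00112), Cd93 by 1.58 ± 0.30 (limma adjusted p = 0.00335), Cldn5 by 1.12 ± 0.25 (limma adjusted p = 0.00976) and Esam by 0.83 ± 0.17 (limma adjusted p = 0.00542). For Cd93 and Cldn5 this was a smaller fall without Rorb, and for Esam a rise that +/+ mice did not show. Values of the other 6 were 0.68 ± 0.20 for Rgs5 (limma adjusted p = 0.0557), 0.57 for Pecam1, 0.45 for Tek, 0.39 for Cdh5, 0.23 for Kdr and -0.12 for Flt1, with limma adjusted p from 0.0557 to 0.818. The median over the 10 was 0.63, against -0.007 over all genes.

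Rgs5 passed without P14 Rorb-/- replicate 4 (0.86, limma adjusted p = 0.00306) and without P28 Rorb-/- replicate 4 (0.79, limma adjusted p = 0.0228). Aplnr has a second, dim probe set, 1423037_at, in which the interaction was 0.09 ± 0.17, so its call rests on the probe set used here.

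With CrxpNrl in both genotypes, the interaction passed in 6 of the 10 genes, all positive (8.58% of all genes in that direction). These were Esam (1.25 ± 0.17, limma adjusted p = 2.61e-05), Pecam1 (1.16 ± 0.22, limma adjusted p = 0.000784), Aplnr (1.42 ± 0.36, limma adjusted p = 0.00964), Kdr (0.72 ± 0.18, limma adjusted p = 0.00767), Rgs5 (0.73 ± 0.20, limma adjusted p = 0.0157) and Tek (0.65 ± 0.20, limma adjusted p = 0.0259). Esam and Aplnr were thus called in both backgrounds, Aplnr by the probe set used: without probe sets of the suffixes s, x and a its other one gave 0.37 (limma adjusted p = 0.178). Cldn5 at 0.73 ± 0.26 (limma adjusted p = 0.058) and Cd93 at 0.91 ± 0.31 (limma adjusted p = 0.0505) lay just outside the threshold. The second Cd93 probe set, 1419589_at, gave 1.10 ± 0.25. Flt1 at 0.47 ± 0.17 (limma adjusted p = 0.0723) and Cdh5 at 0.48 ± 0.20 (limma adjusted p = 0.127) did not pass either. The other Flt1 probe sets gave 0.73, 0.57 and 0.73. Over 25 alternatives each, Cldn5 passed in 6, Cd93 in 9 and Flt1 in 4. Tek lost its call without any 1 of 6 mice (0.56 to 0.64, limma adjusted p 0.0533 to 0.0912): P14 +/+;CrxpNrl replicates 1 and 3, P14 Rorb-/-;CrxpNrl replicates 1 and 2, and P28 +/+;CrxpNrl replicates 2 and 3. It also lost it with array weights (0.54, limma adjusted p = 0.0558) and in a fit of those 4 groups alone (0.65, limma adjusted p = 0.0528). Rgs5 lost it without P28 +/+;CrxpNrl replicate 1 (0.63, limma adjusted p = 0.0643). Pecam1 and Tek were dim in Rorb-/-;CrxpNrl mice, with means of 4.40 and 4.60 at P14 and 4.31 and 4.55 at P28. The lower quartile of an array lay at 3.98 to 4.05, so the room for a fall from P14 was limited in these mice.

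The backgrounds were set against each other directly. The difference between their interactions was not called for any of the 10 genes by limma, and 1 of them, Flt1, had an unadjusted p under 0.05 (0.59 ± 0.24, limma adjusted p = 0.38). Over all genes 0.0715% were called. The 95% intervals were wide, from -1.12 to 0.34 for Cldn5 and from -0.04 to 1.20 for Pecam1, so the data do not show that the backgrounds were alike.

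**Figure D3:**
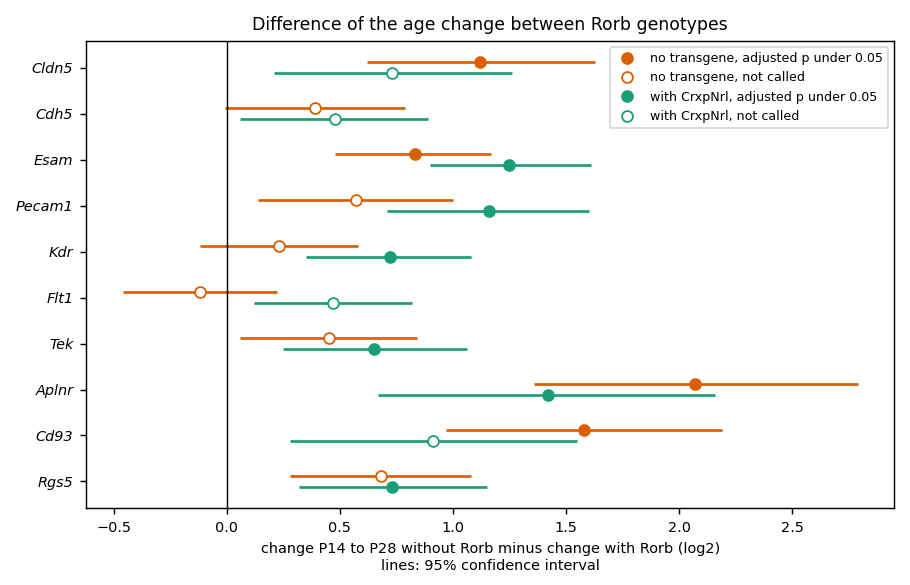
Change from P14 to P28 without Rorb minus the change with Rorb (horizontal axis, log2) for the 10 genes, with 95% confidence intervals, without the transgene and with CrxpNrl; filled points have an adjusted p under 0.05. All points except Flt1 without the transgene lie above 0; the size for Aplnr is limited by its dim P28 signal and has no rank here.

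The pigment epithelium list also differed between these groups. The mean of its 13 genes ran from 7.36 to 7.73 in P14 +/+ mice, 5.65 to 6.07 in P14 Rorb-/-, 5.93 to 7.02 in P28 +/+ and 5.87 to 7.34 in P28 Rorb-/- mice. In the interaction without the transgene 8 of the 13 were higher (1.41% of all genes), with a median of 2.33. Rpe65, the retinoid isomerase of these cells, differed by 3.03 ± 0.62 (limma adjusted p = 0.00631) and Ttr, a retinol carrier, by 3.78 ± 0.72 (limma adjusted p = 0.00374). Among P28 Rorb-/- mice, replicate 2 had both the highest pigment epithelium mean (7.34) and the highest Cldn5 (7.17), Cd93 (6.32) and Rgs5 (9.20), and replicate 4 the lowest of all of these (5.87, 6.11, 5.35 and 8.60). Among P28 +/+ mice, replicate 3 had the highest pigment epithelium mean (7.02) and the lowest Cldn5 (7.09). Among P14 Rorb-/- mice, replicate 4 had the lowest pigment epithelium mean (5.65) and the highest Cldn5 (7.63), Cd93 (7.22), Rgs5 (9.77) and Aplnr (6.64). Among P14 +/+ mice, replicate 2 had the highest pigment epithelium mean (7.73) and the highest Cldn5 (9.22), Cd93 (8.35), Rgs5 (11.15) and Aplnr (8.76). These are single mice at the ends of small groups, and a relation within groups was not tested.

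With the pigment epithelium mean of each array as a covariate in limma, none of the 10 genes passed the interaction without the transgene. At an unadjusted p under 0.05 there were 4, and over all 18193 genes that fit called 11. Aplnr, Cd93 and Cldn5 had smaller values than without the covariate, Esam had a larger one, and the errors of all 4 grew. The values were Aplnr 1.77 ± 0.52 (limma adjusted p = 0.272), Cd93 1.21 ± 0.44 (limma adjusted p = 0.441), Cldn5 0.86 ± 0.36 (limma adjusted p = 0.567) and Esam 0.92 ± 0.25 (limma adjusted p = 0.205). The covariate itself differed between the same groups, so this fit cannot tell it apart from the interaction. Over the 25 or 26 alternatives run for each gene the adjusted p ranged from 0.000755 to 0.878 for Aplnr, 0.000914 to 0.441 for Cd93, 0.00221 to 0.567 for Cldn5 and 0.000674 to 0.205 for Esam. With CrxpNrl, the fit with the covariate called 1.21% of all genes in the interaction. Esam kept its call there (1.35 ± 0.25, limma adjusted p = 0.00659), while Pecam1 was 1.04 (limma adjusted p = 0.0963), Kdr 0.70 (limma adjusted p = 0.194), Tek 0.70 (limma adjusted p = 0.251), Aplnr 1.13 (limma adjusted p = 0.324) and Rgs5 0.54 (limma adjusted p = 0.413). For these 5 genes the covariate gave the highest adjusted p of all alternatives, and the lowest were 0.000384 for Pecam1, 0.00108 for Kdr, 0.0109 for Tek, 0.00246 for Aplnr and 0.00844 for Rgs5. Of the age calls in +/+ mice the covariate ended those of Cdh5 (-0.63, limma adjusted p = 0.0844), Pecam1 (-0.61, limma adjusted p = 0.13), Kdr (-0.45, limma adjusted p = 0.191) and Flt1 (0.37, limma adjusted p = 0.283), leaving 4 of 8. Without the covariate these values were -0.68, -0.68, -0.46 and 0.41. The fit with it called 2.64% of all genes with age in +/+ mice, against 7.94% lower and 5.77% higher without it. At P14 the covariate also ended the genotype calls of Cdh5 (-0.46, limma adjusted p = 0.184) and Cd93 (-0.90, limma adjusted p = 0.072), where that fit called 15.1% of all genes. Without it these values were -0.53 and -1.20. Whether attached pigment epithelium and choroid have a part in these differences was not tested beyond this.

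Of 5 markers of fenestrated and choroidal vessels, all 5 had a positive interaction without the transgene (0.02 to 1.11, median 0.45). Of these, 1 was called, as were 1.41% of all genes in that direction. Plvap, which forms the diaphragms of leaky vessels, was lower in Rorb-/- mice at P14 (-0.93 ± 0.21, limma adjusted p = 0.000783) and its interaction of 0.45 ± 0.29 did not pass (limma adjusted p = 0.512). Vcam1, an adhesion molecule that other retinal cells also make, was higher in Rorb-/- mice at both ages (1.33 at P14, 2.44 at P28), and it was the gene of this list called in the interaction (1.11 ± 0.24, limma adjusted p = 0.00785). Red blood cell genes, of which 4 of the 8 listed were measured, had list means between 3.59 and 4.12 over the arrays, near background, and none was called by limma in the interaction or had an unadjusted p under 0.05.

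**Figure D4:**
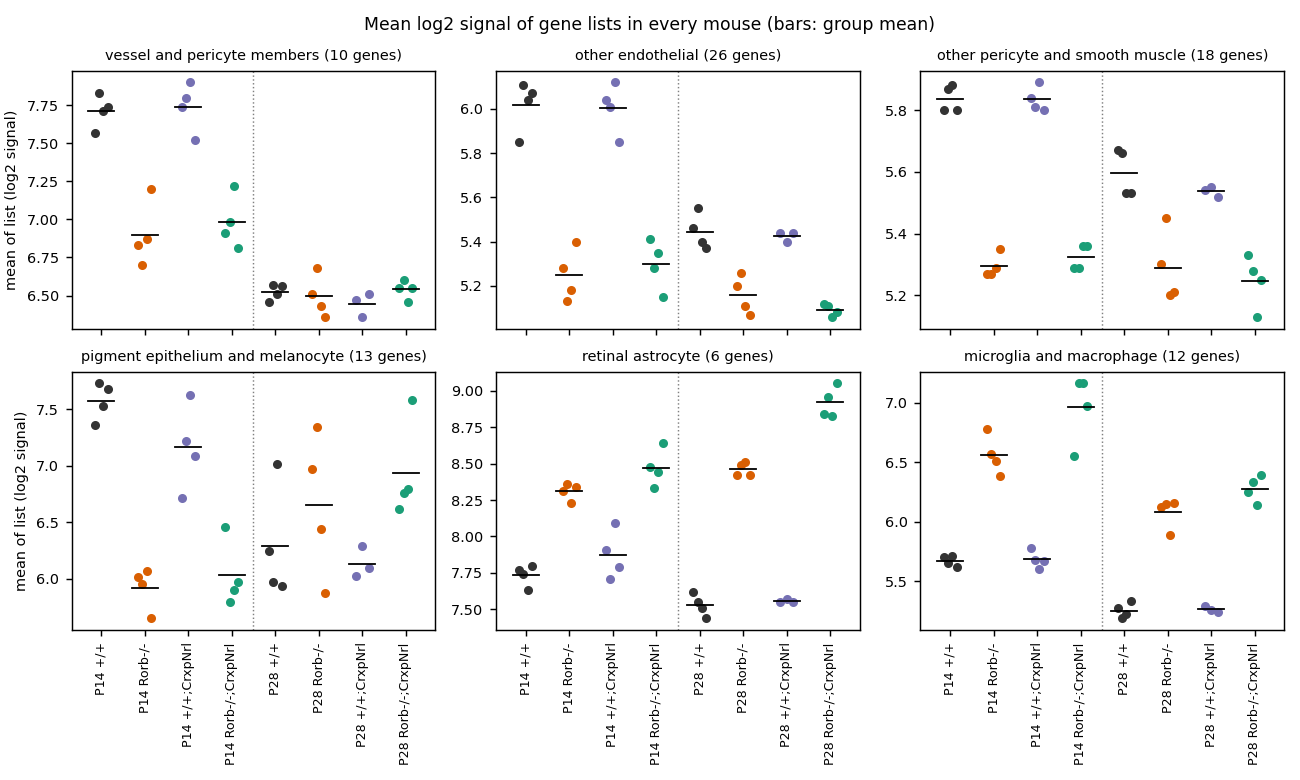
Mean log2 signal of the 10 vessel and pericyte genes and of 5 other gene lists (vertical axes, separate ranges) in every mouse, with bars at group means and a dotted line between the ages. By group means the vessel lists and the pigment epithelium list are highest in the P14 groups with Rorb, while the microglia list and the astrocyte list are higher in the groups without Rorb.

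Other endothelial genes were described from a list of 26. At P14, 21 of the 26 were lower in Rorb-/- mice (13.9% of all genes), with a median of -0.72, and at P28 11 were lower (15.2%), with a median of -0.26. With age 17 fell in +/+ and 2 in Rorb-/- mice (7.94% and 8.8% of all genes). In the interaction 6 were called, all positive (1.41% of all genes in that direction), with a median of 0.46. The defining gene Vwf, which encodes von Willebrand factor, read 5.58 to 6.27 in P14 +/+, 3.89 to 4.97 in P14 Rorb-/-, 4.23 to 5.00 in P28 +/+ and 4.51 to 5.00 in P28 Rorb-/- mice. Vwf was thus apart at P14 (-1.49 ± 0.21, limma adjusted p = 2.71e-06) and overlapping at P28. In P14 Rorb-/- mice its levels reached down to the lower quartile of an array (3.98 to 4.05), so the room for a fall was limited. With that limit, its interaction was 1.59 ± 0.30 (limma adjusted p = 0.00365). Cd34, a sialomucin of endothelium and progenitor cells, had 1.09 ± 0.24 (limma adjusted p = 0.00951), Adgrl4, an adhesion receptor, 1.05 ± 0.25 (limma adjusted p = 0.0173) and Icam2, an endothelial adhesion molecule, 0.87 ± 0.23 (limma adjusted p = 0.0357).

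Of 18 other pericyte and smooth muscle genes, 7 were lower in Rorb-/- mice at P14 (13.9% of all genes), with a median of -0.30, and 4 at P28 (15.2%). The interaction was called in 2 (1.41% of all genes were called higher), Ndufa4l2 (0.82 ± 0.23, limma adjusted p = 0.0463) and Higd1b (0.79 ± 0.19, limma adjusted p = 0.0198), both transcripts known from brain pericytes. Pdgfrb, the receptor that draws pericytes to vessels, was lower at P14 (-0.88 ± 0.19, limma adjusted p = 0.000439); its interaction was 0.70 ± 0.26 without the transgene (limma adjusted p = 0.176) and 1.14 ± 0.27 with it (limma adjusted p = 0.0062). The median interaction of this list was 0.10.

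Of 14 blood-retina barrier genes, 9 were lower and 1 higher in Rorb-/- mice at P14 (13.9% and 16% of all genes). Slco1c1, a thyroid hormone and anion transporter of barrier endothelium, was 5.43-fold lower (-2.44 ± 0.22, limma adjusted p = 6.68e-10), and Mfsd2a, a lipid transporter needed for the barrier, 2.00-fold lower (-1.0 ± 0.17, limma adjusted p = 2.39e-05). These 2 were also the ones called in the interaction (1.41% of all genes were called higher), Slco1c1 at 1.15 ± 0.31 (limma adjusted p = 0.042) and Mfsd2a at 0.92 ± 0.24 (limma adjusted p = 0.0313). Slc38a5, an amino acid transporter, was lower at P14 (-1.17 ± 0.18, limma adjusted p = 9.59e-06), and its interaction of 0.84 ± 0.26 did not pass (limma adjusted p = 0.0802). The transcription factor Foxf2 was lower at P14 (-0.38 ± 0.13, limma adjusted p = 0.0277), with an interaction of 0.50 ± 0.19 (limma adjusted p = 0.171).

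The ligands of these receptors were part of a list of signalling genes. Of 23 genes of VEGF, angiopoietin, apelin, Notch and Norrin signalling, 5 were lower and 4 higher in Rorb-/- mice at P14 (13.9% and 16% of all genes). Vegfa, the ligand of Kdr and Flt1, was higher at P14 (0.37 ± 0.13, limma adjusted p = 0.0353), and its interaction was -0.09 ± 0.19 (limma adjusted p = 0.895). Apln, the ligand of Aplnr, was the 1 gene of the list called in the interaction (0.79 ± 0.22, limma adjusted p = 0.0432), where 1.41% of all genes were called higher. The P14 difference of Apln, -0.38 ± 0.15, did not pass (limma adjusted p = 0.0612). Angpt2, the angiopoietin of remodelling vessels that acts on Tek, was lower at both ages (-0.65 ± 0.10 at P14, limma adjusted p = 8.22e-06; -0.28 ± 0.10 at P28, limma adjusted p = 0.0367). Vegfc, a ligand mainly of VEGF receptor 3, was lower at P14 (-0.39 ± 0.14, limma adjusted p = 0.0317), as was the Notch ligand Jag1 (-1.18 ± 0.32, limma adjusted p = 0.00538).

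Markers of glia and microglia, the cells around the vessels, were counted in the same way. Microglia and macrophage genes were higher in Rorb-/- mice in 11 of 12 cases at P14 (16% of all genes), and the list mean ran from 6.38 to 6.78 against 5.62 to 5.71 in +/+ mice. Of 6 genes measured from the astrocyte list, 3 were higher and 1 lower at P14 (16% and 13.9% of all genes). The lower one was Aqp4, the water channel of glial endfeet on vessels, at -0.82 ± 0.11 (limma adjusted p = 4.53e-07), and its interaction was 0.95 ± 0.15 (limma adjusted p = 0.000513). In the interaction 2 of these 6 genes were called without the transgene and 4 with CrxpNrl, all positive (1.41% and 8.58% of all genes), with medians of 0.30 and 0.75. Their part in the vessel gene differences was not tested.

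Alongside CrxpNrl the Rorb genotype difference was measured in a second set of mice. At P14, Rorb-/-;CrxpNrl against +/+;CrxpNrl mice had 7 of the 10 genes lower and 2, Kdr and Flt1, higher (13.8% and 16.3% of all genes). The higher Flt1 again rests on 1 probe set: with the mean of the 4 it was -0.08 (limma adjusted p = 0.619). Cldn5 read 7.41, 7.44, 7.64 and 6.86 against 8.82, 8.82, 8.99 and 8.62, and Rgs5 read 9.23, 9.17, 9.55 and 9.11 against 10.80, 10.86, 10.94 and 10.56. Neither gene overlapped, and the differences were -1.48 ± 0.17 and -1.52 ± 0.14 (limma adjusted p = 1.09e-07 and 8.49e-10). Kdr was again higher (1.23 ± 0.12, limma adjusted p = 4.07e-09), and Esam again did not pass (-0.11 ± 0.12, limma adjusted p = 0.571).

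At P28, 3 genes were lower and 3 higher with CrxpNrl in both genotypes (15.9% and 20.7% of all genes). Lower were Cldn5, Tek and Rgs5, and higher were Esam, Kdr and Flt1. Kdr read 10.35, 10.22, 10.33 and 10.68 in P28 Rorb-/-;CrxpNrl mice against 8.23, 8.43 and 8.67 in P28 +/+;CrxpNrl mice, a 3.87-fold difference with no overlap (1.95 ± 0.13, limma adjusted p = 1.54e-12). Esam read 8.55, 8.62, 8.98 and 8.74 against 7.56, 7.63 and 7.54, also with no overlap (1.15 ± 0.13, limma adjusted p = 2.63e-08). The age comparison gave 8 genes lower in +/+;CrxpNrl mice (7.2% of all genes), and 3 lower and 2 higher in Rorb-/-;CrxpNrl mice (15.3% and 13.6%).

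Mice with and without the transgene were set against each other in 4 comparisons, and genes of the 10 were called in 1 of them. In +/+ mice limma called none of the 10 at P14 (0.126% of all genes) or at P28 (0.22%), and none had an unadjusted p under 0.05. In Rorb-/- mice it called none at P14 (5.3% of all genes; Kdr had an unadjusted p under 0.05) and 4 at P28, 3 higher (11.7% of all genes) and 1 lower (7.47%). At P28 Kdr was higher with the transgene (0.60 ± 0.12, limma adjusted p = 0.000566), as were Flt1 (0.56 ± 0.12, limma adjusted p = 0.00083) and Esam (0.49 ± 0.12, limma adjusted p = 0.00312), and all 3 were without overlap, which held for 15.1% of all genes. Cd93 was lower (-0.66 ± 0.21, limma adjusted p = 0.0249) with overlapping groups, a call lost without P28 Rorb-/- replicate 1 (-0.58, limma adjusted p = 0.0855) or 2 (-0.52, limma adjusted p = 0.113) or P28 Rorb-/-;CrxpNrl replicate 3 (-0.50, limma adjusted p = 0.133), and in a fit of those groups alone (limma adjusted p = 0.104).

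Where a gene had several probe sets, these were compared. The 10 genes had 22 probe sets, 5 genes having 1 and 5 several. The 4 probe sets of Rgs5 gave Rorb-/- minus +/+ differences of -1.79, -1.76, -1.59 and -1.79 at P14. The second Cd93 probe set, 1419589_at, gave -1.23 at P14 and an interaction of 1.34 ± 0.24, near the one used, and the other 3 of Cd93 lay below the lower quartile on 26 to 31 of the 31 arrays. The second Aplnr probe set gave -0.27 at P14 with an age change of -0.79 in +/+ mice, far from the -4.71 of the set used. Without probe sets of the suffixes s, x and a, the P14 genotype call of Aplnr was lost (-0.27, limma adjusted p = 0.086). In the P14 genotype difference the probe sets thus went together for Rgs5 and apart for Flt1 and Aplnr. In the interaction with CrxpNrl the Rgs5 sets gave 0.73 ± 0.20, 0.89 ± 0.31, 0.38 ± 0.39 and 1.22 ± 0.28. The second Cdh5 probe set, 1422047_at, lay below the lower quartile on all 31 arrays.

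**Figure D5:**
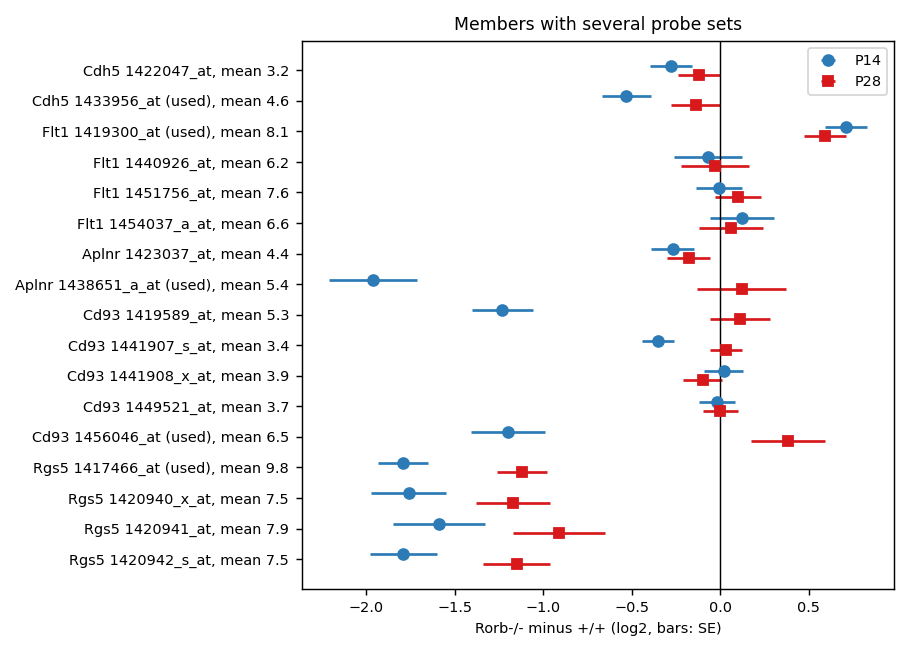
Difference Rorb-/- minus +/+ (horizontal axis, log2) at P14 (circles) and P28 (squares) for each probe set of the 5 genes with several, with standard errors and each probe set's mean level over the arrays. The 4 Rgs5 sets lie together below 0, and 1 of the 4 Flt1 sets stands apart on the right.

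Over the 31 arrays the genes fell into those that followed the rest and those that did not. Pearson's r of a gene with the mean of the other 9 was 0.93 for Cd93, 0.91 for Cldn5, 0.87 for Cdh5, 0.86 for Aplnr, 0.79 for Pecam1, 0.71 for Rgs5 and 0.57 for Tek. It was -0.22 for Esam, -0.25 for Kdr and -0.69 for Flt1. These values describe all 8 groups together and so mostly carry the differences between groups. The genes were centred but not scaled, so those with large changes, Aplnr and Cd93 above all, weighed most in the means. Of the genes outside the lists, the most like the mean of the 10 was Ets1, which encodes a transcription factor of the ETS family (r = 0.95), followed by Wwtr1, Itga1 and Lama4 (0.92 each), Slc39a8 (0.91) and Plxnd1 (0.90). Ets1 averaged 6.84 ± 0.20 (SD, n = 4) in P14 +/+, 5.36 ± 0.22 in P14 Rorb-/-, 5.20 ± 0.09 in P28 +/+ and 4.68 ± 0.27 in P28 Rorb-/- mice.

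Promoter windows of genes that differed in opposite directions are shown to let their sequence be compared. The RefSeq table (GRCm38.p6) matched 5 of the 10 genes by symbol. Each window holds the 250 bases before the gene's start, 5′ to 3′ on the gene's strand. Capitals mark GGAA, the core that ETS factors bind, or its reverse TTCC. Cldn5 (chr16:18776597-18776846, plus strand) and Rgs5 (chr1:169655251-169655500, plus strand) were lower without Rorb at P14, and Kdr (chr5:75978456-75978705, minus strand) was higher.
Cldn5: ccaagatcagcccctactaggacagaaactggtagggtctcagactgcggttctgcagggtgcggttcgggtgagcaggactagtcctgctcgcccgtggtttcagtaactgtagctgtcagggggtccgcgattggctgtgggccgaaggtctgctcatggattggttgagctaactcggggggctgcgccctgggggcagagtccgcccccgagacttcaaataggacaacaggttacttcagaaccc
Rgs5: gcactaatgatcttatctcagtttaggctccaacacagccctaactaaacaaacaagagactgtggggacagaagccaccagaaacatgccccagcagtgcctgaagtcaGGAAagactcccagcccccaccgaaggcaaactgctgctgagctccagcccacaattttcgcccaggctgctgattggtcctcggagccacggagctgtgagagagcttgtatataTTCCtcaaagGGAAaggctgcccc
Kdr: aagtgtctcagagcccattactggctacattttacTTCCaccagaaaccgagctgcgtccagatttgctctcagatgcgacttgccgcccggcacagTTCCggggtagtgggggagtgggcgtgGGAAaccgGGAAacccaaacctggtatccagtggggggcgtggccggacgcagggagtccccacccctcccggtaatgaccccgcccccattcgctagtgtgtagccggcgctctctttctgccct

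The core occurs 0 times in the Cldn5 window, 3 times in Rgs5 and 4 times in Kdr, and 2 times in Tek and 4 times in Flt1, whose windows are not printed. Over 32851 such windows of all genes, 93.4% hold it, 2.91 times on average, and the Cldn5 window is among those without it. AGGTCA, a site bound by many nuclear receptors, searched on both strands, is in none of the 5 windows and in 14.0% of all windows. The motifs were chosen after the windows had been looked at, and a match is a description of letters only.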

How the data were processed

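Total RNA of 31 mouse retina samples was hybridised to Affymetrix arrays. The deposited values are log2 signals of 45101 probe sets, normalized by the authors; RMA is the tool that the submitters' processing notes name, without a version. RMA sets all arrays to one distribution, so a difference is relative to the rest of the array (medians 5.84 to 5.91). Symbols came from the platform annotation: 34958 probe sets had 1 symbol, 932 several and 9211 none. The probe set with the highest mean stood for each of 18193 genes, and no pseudocount or filter was used. One mean per group was fitted to all 31 arrays with limma 3.58.1 (R 4.3.3) and a trended prior, contrasts were taken from it, and p-values were adjusted by Benjamini-Hochberg over all genes (threshold 0.05). The fit was tested on simulated data. The number of arrays limits the precision. The 10 genes and all lists were chosen with earlier results of these data known. Named beside them are up to 4 genes of each list with the largest interaction, Plvap, Rpe65, Pdgfrb, Vegfa and Vwf, and the 6 genes most correlated with the member mean. Equal replicate numbers are not said to mark a shared litter or day. Deviations of same-numbered mice correlated at over 0.1 in every pair in 3 of the comparisons, Rorb-/- against +/+ at P14 (0.11 to 0.29), P28 against P14 in +/+;CrxpNrl (0.23 to 0.30) and +/+;CrxpNrl against +/+ at P28 (0.21 to 0.37), and the block on the number changed none of their calls. None of 465 array pairs held identical values. Some listed genes are not analysed here. Alternatives were another scaling, the mean of probe sets, fewer probe sets, a filter on dim genes, no trend, array weights, only the compared groups, the block, the pigment epithelium mean as a covariate and each mouse left out.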

Additional observations from a re-analysis of the deposited data

Results flagged for a closer look

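In 70 groups of 4 values, 1 mouse stood far from the other 3 in 4 cases, and chance flags about 1 in 20. P14 +/+ replicate 2 had a Cldn5 level of 9.22, with the others at 8.88. P28 Rorb-/-;CrxpNrl replicate 1 had a Tek level of 4.78, with the others at 4.46 to 4.49. P14 +/+;CrxpNrl replicate 4 had a Cd93 level of 7.58, with the others at 8.07 to 8.17. P28 +/+ replicate 2 had a Cd93 level of 5.95, with the others at 5.36 to 5.43.

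The change from P14 to P28 differed between the Rorb genotypes by the interaction test of limma in these genes. Without the transgene the log2 difference was 1.12 for Cldn5, 0.83 for Esam, 2.07 for Aplnr and 1.58 for Cd93. With CrxpNrl it was 1.25 for Esam, 1.16 for Pecam1, 0.72 for Kdr, 0.65 for Tek, 1.42 for Aplnr and 0.73 for Rgs5. The Aplnr values rest on P28 signals near background and on 1 of its probe sets. Pecam1 and Tek were dim at both ages in Rorb-/-;CrxpNrl mice.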

How the results depend on the processing

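Over the 15 comparisons, the number of the 10 genes called stayed within 1.5 times its value in 296 of 305 alternatives. Counts of 0 that stayed at 0 are among these, and a like count can hold different genes. With the pigment epithelium covariate the number called went to 0 (interaction, no transgene), 1 (interaction with CrxpNrl) and 4 (P28 against P14 in +/+). That fit called 0.0605%, 1.21% and 2.64% of all genes in these comparisons. Without the dimmest 40% of genes, which leaves 6 of the 10, it was 5 in each of P28 against P14 in +/+ and in +/+;CrxpNrl and of the Rorb genotype at P14 without and with CrxpNrl, since fewer genes were tested. Of all genes left, 21.8%, 15.7%, 41.9% and 42.9% were called in these comparisons. The transgene in Rorb-/- mice at P14 gave 1 with array weights (6.82% of all genes) and 1 with the replicate block (7.52% of all genes). The cause was not tested. Elsewhere the replicate block gave 5 for the interaction without the transgene (Rgs5 added, limma adjusted p = 0.044) and 8 with it (Cldn5 0.0306 and Cd93 0.018 added). Over all genes the block called 4.79% and 15.9% in these interactions. Leaving out each mouse gave 4 to 5 and 5 to 8 for these interactions.

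Signs turned only for differences that were not called or for Flt1. With the mean of all probe sets, Aplnr was -0.03 and -0.05 for Rorb at P28 without and with CrxpNrl, and Flt1 -0.08 for Rorb at P14 with CrxpNrl, where the set used is called. Without probe sets of the suffixes s, x and a, Aplnr was -0.18 and -0.13 at P28, and 0.11 for the transgene in Rorb-/- mice at P28; with the covariate it was -0.08 with CrxpNrl. The probe sets differ by construction. With a mouse left out, Aplnr ranged from -0.05 to 0.28 and from -0.17 to 0.14 at P28, Cdh5 from -0.14 to 0.09 for the transgene in Rorb-/- mice at P28, Kdr from -0.08 to 0.08 and Tek from -0.14 to 0.05 with age in Rorb-/-;CrxpNrl mice, and Tek from -0.03 to 0.20 with age in Rorb-/- mice.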
